A study of Mus musculus with 8 samples.

Results

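The myelin genes of the Schwann cell described here were Mbp, Pmp22, Pmp2, Mag, Cnp, Prx, Drp2 and Egr2, 8 of the 24421 genes in the count table, and they were chosen by name as genes of peripheral myelin, with earlier results of these data known. All 8 were found, and all 8 were among the 17328 genes with enough counts to be tested. RNA came from the dorsal root ganglia (DRG) of wild type C57BL/6J mice, male by the methods of the study and 8 weeks old by its design text, where the methods give a range of ages that starts there. Naive, untreated mice made up the 0d group, and the other mice had received 20 µl of 1% carrageenan, a seaweed polysaccharide that inflames tissue, in the left hind paw 1, 3 or 30 days earlier. Each of the 4 time points (0d, 1d, 3d and 30d) had 2 libraries, called pool 1 and pool 2 below, and each library held the RNA of lumbar ganglia L3 to L5 of 2 to 3 mice. There was no group injected with vehicle, so an effect of the injection or of the age reached by 30d cannot be told apart from one of carrageenan.

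Myelinating Schwann cells wrap the larger sensory axons of a ganglion and its roots in a compacted membrane sheath, which lets impulses jump between gaps in the sheath. Small unmyelinated axons lie in bundles within other Schwann cells, and the cell bodies of the neurons are covered by satellite glia. When an axon is cut, its Schwann cells are known to switch off the myelin programme and to take up a repair state marked by Jun and Ngfr, while the paw injection used here leaves the nerve itself uncut.

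The proteins of the 8 genes have different places in the sheath. MBP (myelin basic protein) holds the inner faces of the membrane together in compact myelin, PMP22 is a membrane protein of compact myelin whose gene dosage causes inherited neuropathies, and PMP2 (P2) is a fatty acid binding protein of peripheral myelin. MAG lies on the inner, axon-facing wrap, and CNP is an enzyme of the uncompacted cytoplasmic channels. Periaxin, from Prx, and DRP2 form a complex that links the outer Schwann cell membrane to the basal lamina. EGR2 (Krox20) is the transcription factor that turns on and maintains the programme in Schwann cells, with SOX10 as its partner at several of the other genes.

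Because EGR2 and SOX10 bind near several of these genes, the 250 bases before the transcription start (RefSeq, GRCm38.p6, the same assembly as mm10) are shown for genes of the membrane, the axon-facing wrap and the outer complex and for the regulator itself. RefSeq promoters were matched for 5 of the 8 genes, and Cnp is not shown because the stretch overlaps an annotated exon. Capitals mark matches, on either strand, to an EGR motif (GTGGGNG) or a SOX motif (ACAAAG or ACAATG), and the other letters are in lower case. Each sequence runs 5′ to 3′ on the strand of its gene, Pmp22 at chr11:63128732-63128981 (plus strand), Mag at chr7:30914864-30915113 (minus strand), Prx at chr7:27499074-27499323 (plus strand) and Egr2 at chr10:67537619-67537868 (plus strand).
Pmp22: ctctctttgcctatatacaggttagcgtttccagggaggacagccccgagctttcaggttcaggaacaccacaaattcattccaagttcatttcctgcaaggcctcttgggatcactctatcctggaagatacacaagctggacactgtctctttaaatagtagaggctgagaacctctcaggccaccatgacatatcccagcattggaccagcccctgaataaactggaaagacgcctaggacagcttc
Mag: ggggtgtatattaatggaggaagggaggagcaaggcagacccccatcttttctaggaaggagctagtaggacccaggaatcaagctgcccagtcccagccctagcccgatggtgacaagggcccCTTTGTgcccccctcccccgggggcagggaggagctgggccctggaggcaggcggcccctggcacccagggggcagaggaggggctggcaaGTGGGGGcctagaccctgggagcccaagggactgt
Prx: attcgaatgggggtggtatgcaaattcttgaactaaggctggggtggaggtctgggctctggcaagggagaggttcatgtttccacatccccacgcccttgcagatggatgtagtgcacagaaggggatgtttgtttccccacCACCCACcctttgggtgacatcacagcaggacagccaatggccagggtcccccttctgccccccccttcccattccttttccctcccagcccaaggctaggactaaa
Egr2: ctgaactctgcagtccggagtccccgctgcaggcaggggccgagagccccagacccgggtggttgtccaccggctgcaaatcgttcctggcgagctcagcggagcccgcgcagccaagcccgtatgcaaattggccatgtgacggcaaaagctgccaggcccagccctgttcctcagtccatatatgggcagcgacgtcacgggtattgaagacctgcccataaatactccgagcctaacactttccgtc
The Mag stretch held 1 EGR and 1 SOX match, the Prx stretch 1 EGR match, and the Pmp22 and Egr2 stretches none. The EGR motif was present in 28.1% and the SOX motif in 25.2% of all 32851 RefSeq promoters of this length, the 2 motifs do not overlap in Mag, and a match is a run of letters and not a bound site. No exon of the 8 genes overlapped another gene of the annotation used for counting. A second gene model at the Pmp2 locus, Gm37389 of GENCODE, shares 86.7% of the 50-base words of the Pmp2 transcript, and it was not among the genes counted.

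The 8 genes together took up between 0.370% and 0.635% of all counts of a library. Per length, as RPKM (CPM divided by the gene length in the table, in kilobases, where CPM are counts scaled to library size), Pmp22 had the highest mean level over the 8 libraries at 862, followed by Mbp at 270, Prx at 113, Cnp at 83.2, Drp2 at 48.4, Pmp2 at 29.8, Mag at 13.9 and Egr2 at 6.34. Ranges of RPKM over the libraries overlapped between 3 pairs of neighbours in this order, Prx (82.6 to 136) with Cnp (66.2 to 88.9) and Pmp2 (18.1 to 48.6) with Drp2 (38.1 to 55.2) and with Mag (11.4 to 18.2), and between no other genes. The transcription factor was thus the least abundant of the 8 messages and the membrane protein PMP22 the most abundant.

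The central question was whether these levels changed after the paw was inflamed. Levels over time are given as CPM scaled by the TMM method, which can be compared between libraries but not between genes. Because RNA came from whole pieces of tissue, fewer myelinating Schwann cells in a pool and less of these messages per cell cannot be told apart.

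Mbp stood at 2312 and 1761 CPM in pools 1 and 2 of 0d, 1668 and 1741 in those of 1d, 1960 and 1937 in those of 3d and 1303 and 1833 in those of 30d. Pmp22 stood at 2574 and 1958 CPM in the pools of 0d, 1957 and 1955 in those of 1d, 2289 and 2283 in those of 3d and 1398 and 1809 in those of 30d. Pmp2 stood at 66.2 and 39.1 CPM in the pools of 0d, 36.1 and 28.4 in those of 1d, 46.4 and 47.0 in those of 3d and 24.7 and 36.6 in those of 30d. In these 3 genes of compact myelin, pool 1 of 0d was the highest and pool 1 of 30d the lowest of the 8 libraries, while the pools of 3d nearly coincided. The highest library exceeded the lowest 1.77-fold for Mbp, 1.84-fold for Pmp22 and 2.68-fold for Pmp2.

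Mag, at the axon-facing wrap, stood at 44.2 and 32.6 CPM in the pools of 0d, 31.5 and 31.3 in those of 1d, 36.4 and 35.0 in those of 3d and 27.7 and 31.9 in those of 30d. Cnp, in the cytoplasmic channels, stood at 234 and 220 CPM in the pools of 0d, 216 and 236 in those of 1d, 235 and 238 in those of 3d and 177 and 226 in those of 30d. Mag had the same highest and lowest pools as the compact myelin genes. Cnp varied least of the 8 genes, 1.34-fold from the lowest to the highest library, and only pool 1 of 30d stood away from the rest.

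Prx stood at 714 and 540 CPM in the pools of 0d, 546 and 574 in those of 1d, 665 and 659 in those of 3d and 435 and 637 in those of 30d. Its partner Drp2 stood at 385 and 312 CPM in the pools of 0d, 327 and 336 in those of 1d, 350 and 351 in those of 3d and 266 and 380 in those of 30d. Both genes of the outer complex had pool 1 of 0d highest and pool 1 of 30d lowest, and for Drp2 the highest pool of 30d came close to that maximum. Egr2, the regulator, stood at 26.4 and 12.9 CPM in the pools of 0d, 16.7 and 15.8 in those of 1d, 16.4 and 17.5 in those of 3d and 20.9 and 23.9 in those of 30d. Egr2 thus had its highest and its lowest library within 0d, and its 30d pools lay above those of 1d and 3d.

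**Figure D1:**
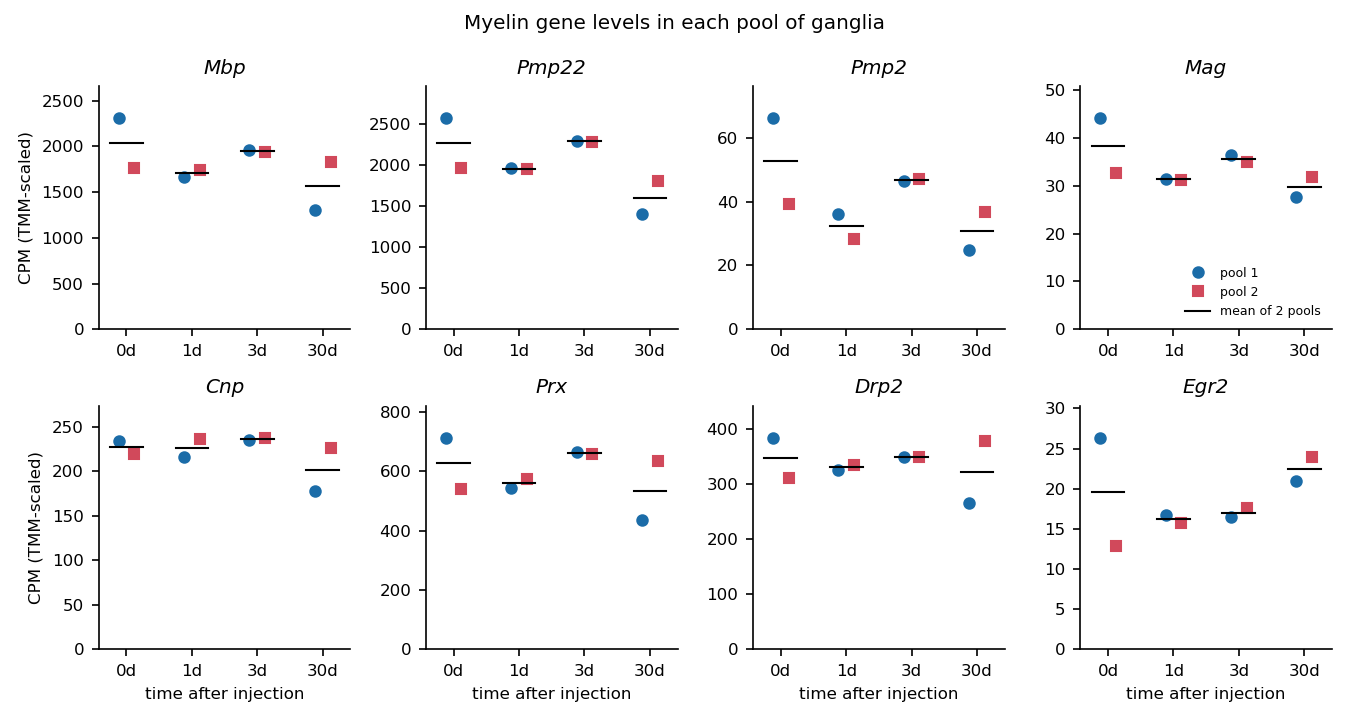
Level of each myelin gene (vertical axis, TMM-scaled CPM from 0) at 0d, 1d, 3d and 30d (horizontal axis), with pool 1 as circles, pool 2 as squares and the mean of the 2 pools as a line. The pools of 3d lie close together. Those of 0d and 30d lie apart for Mbp, at 2312 against 1761 CPM and at 1303 against 1833 CPM.

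At 0d and at 30d, pools of the same time point differed in most of these genes by more than pools did in most other genes. Over the 8 genes, the median size of the log2 difference between pool 1 and pool 2 was 0.40 within 0d and 0.43 within 30d, but 0.068 within 1d and 0.017 within 3d. The same median over the 10410 tested genes with a mean of at least 10 CPM was 0.078 within 0d, 0.083 within 30d, 0.074 within 1d and 0.045 within 3d. For Egr2 the difference at 0d, 1.03, was larger than that of 99.9% of these genes, for Pmp2 (0.76) larger than 99.6% and for Mag (0.44) larger than 98.1%. For Prx the difference at 30d, -0.55, was larger in size than that of 99.0% of these genes, and for Mbp (-0.49) larger than 98.5%. Cnp was the exception at 0d, where its difference of 0.094 was larger than that of only 58.3% of genes.

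The direction of these differences was shared. In all 8 genes pool 1 was above pool 2 at 0d and below pool 2 at 30d, which held for 24.4% of all tested genes. Pool 1 of 0d was the highest library in 7 of 8 genes, all but Cnp, against 11.2% of all tested genes, and pool 1 of 30d was the lowest in 7 of 8, all but Egr2, against 15.5%. In 7 of 8 genes, all but Pmp22, the range of the 4 time point means was smaller than the largest difference between pools of a time point, which was so for 64.5% of all tested genes. For Drp2 the means spanned 0.14 on the log2 scale and the pools of 30d differed by 0.51, and for Pmp22 the means spanned 0.52 and the pools of 0d differed by 0.40.

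**Figure D2:**
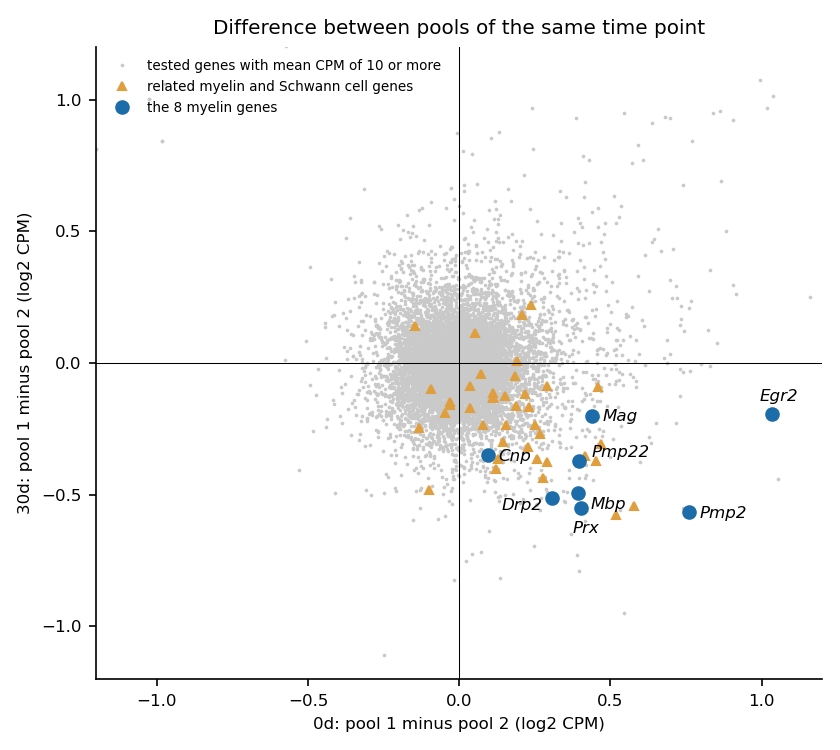
Difference in log2 CPM between pool 1 and pool 2 at 0d (horizontal axis) and at 30d (vertical axis) for 10410 tested genes with a mean of at least 10 CPM (grey points, 17 of them beyond the axes), the 8 myelin genes (blue circles) and related myelin and Schwann cell genes (orange triangles). All 8 myelin genes lie in the lower right part, above 0 at 0d and below 0 at 30d.

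The common pattern could be followed over the 8 libraries as Pearson's r of log2 CPM, given as a description because the points share their libraries. The 2 most alike of the 8 genes were Mbp and Prx (r = 0.96), and the least alike were Cnp and Egr2 (r = -0.11). The median r of a gene with the other 7 was 0.92 for Mbp, 0.90 for Pmp22, 0.89 for Prx, 0.85 for each of Mag, Pmp2 and Cnp, 0.78 for Drp2 and 0.28 for Egr2. The regulator was therefore the gene whose levels followed the others least, and its whole range lay between the pools of 0d.

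Among the other 17320 tested genes, those whose log2 CPM over the 8 libraries was most like the mean of the 8 myelin genes were Secisbp2l, Nes, Mfap5 and Cldn19 (r = 0.98 each), Itm2a, Sorcs1, Nefh and Tlcd2 (0.96 each), and Itga6 and Ctnna1 (0.95 each). Cldn19 encodes a tight junction protein of Schwann cell myelin, Itga6 a laminin receptor subunit, and Nefh the heavy neurofilament of large axons. The genes with the most opposite pattern were Dgkz (r = -0.99), Tox2 and Serpinb8 (-0.97 each), and the haemoglobin chains Hbb-bt and Hbb-b2, which had the same value of -0.96 and identical counts. In all 10 of the most alike genes pool 1 of 0d was the highest library and pool 1 of 30d the lowest, and in the 5 opposite ones the order was the reverse. The median r with the same mean was 0.69 for 41 other genes of myelin and its Schwann cell, and 0.00017 over all genes ranked.

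Against 0d, none of the 8 genes changed significantly at 1d, in a comparison in which 0.346% of all tested genes were called at an adjusted p under 0.05. All 8 fold changes were below 0, as were 51.2% of those of all tested genes, with a median of -0.23 on the log2 scale. Values were -0.26 for Mbp (95% interval -0.85 to 0.34), -0.21 for Pmp22 (-0.72 to 0.29), -0.71 for Pmp2 (-1.65 to 0.24), -0.16 for Prx (-0.81 to 0.48), -0.0067 for Cnp (-0.29 to 0.28), -0.073 for Drp2 (-0.63 to 0.48) and -0.27 for Egr2 (-1.18 to 0.65). The smallest unadjusted p was 0.0451 for Mag, at -0.29 (-0.57 to -0.0078), where 4.47% of all tested genes had one under 0.05, and its adjusted p in edgeR was 0.9999. The pools did not overlap for Mbp, Pmp22, Pmp2 and Mag, which were lower in both pools of 1d, a separation found for 16.4% of all tested genes. The shared direction depended on pool 1 of 0d. With that pool left out, Pmp22 (0.0011), Prx (0.055), Drp2 (0.090) and Egr2 (0.34) were above 0. Mbp (-0.045) and Mag (-0.053) stayed below 0 in that fit. Without pool 2 of 0d, Mag (-0.50, adjusted p = 0.0296) and Egr2 (-0.70, adjusted p = 0.0137) were called lower, beside 0.236% of all genes in that fit, and without pool 1 of 0d the values were -0.053 and 0.34 and neither was called.

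At 3d none of the 8 genes differed significantly from 0d, where 0.219% of all tested genes were called. Fold changes were above 0 for 4 genes and below 0 for 4, at 0.0072 for Drp2, 0.013 for Pmp22, 0.060 for Cnp, 0.077 for Prx, -0.064 for Mbp, -0.11 for Mag, -0.17 for Pmp2 and -0.20 for Egr2. The 95% intervals were wide, from -0.54 to 0.56 for Drp2, -0.49 to 0.52 for Pmp22 and -0.66 to 0.53 for Mbp. Only Cnp had pools that did not overlap, with 235 and 238 CPM at 3d above both pools of 0d, a separation in this direction found for 19.9% of all tested genes. The split in direction depended on the pools of 0d. Leaving out pool 1 of 0d put all 8 genes above 0, from 0.11 for Cnp to 0.40 for Egr2. Leaving out pool 2 of 0d put all but Cnp (0.014) below 0, from -0.11 for Prx to -0.63 for Egr2. Without pool 2 of 0d, Egr2 was called lower (-0.63, adjusted p = 0.0346), beside 0.169% of all genes. Without both pool 1 of 0d and pool 1 of 30d, a choice made after the data were seen, Prx (0.29, adjusted p = 0.000165) and Pmp22 (0.22, adjusted p = 0.00102) were called higher, beside 1.42% of all genes.

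At 30d none of the 8 genes differed significantly from 0d, where 0.0231% of all tested genes, 4 in number, were called. Fold changes were below 0 for 7 of the 8 genes, with a median of -0.29, against 50.1% of all tested genes. The lowest was Pmp2 at -0.78 (95% interval -1.71 to 0.16), followed by Pmp22 at -0.50 (-1.003 to 0.0049), Mbp at -0.38 (-0.97 to 0.22) and Mag at -0.36 (-0.64 to -0.082), and Egr2 stood at 0.20 (-0.70 to 1.09). Prx stood at -0.23 (-0.87 to 0.42), Cnp at -0.17 (-0.45 to 0.11) and Drp2 at -0.11 (-0.66 to 0.44). Mag had an unadjusted p of 0.0163, a threshold of 0.05 passed by 12.3% of all tested genes, and an edgeR adjusted p of 0.296. Pmp22, Pmp2 and Mag were lower in both pools of 30d than in either pool of 0d, as were 20.2% of all tested genes.

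The sign of this comparison depended on pool 1 of each time point for several genes. For Egr2 it depended on pool 2 of 0d, without which Egr2 stood at -0.23. Without pool 1 of 30d, Drp2 stood at 0.12 and Prx at 0.020 against 0d. Without both pool 1 of 0d and pool 1 of 30d, which leaves 1 pool in each group, Egr2 (0.89, adjusted p = 0.000105), Drp2 (0.28, adjusted p = 0.00247) and Prx (0.24, adjusted p = 0.00749) were called higher at 30d, beside 3.08% of all genes tested in that fit, and Mbp stood at 0.057. In the other direction, leaving out pool 2 of 0d gave -0.57 for Mag (adjusted p = 0.0244, beside 0.146% of all genes called lower), and leaving out pool 2 of 30d gave -0.36 for Cnp (adjusted p = 0.00832, beside 0.556%). Without pool 1 of 0d alone, Egr2 was called higher (0.80, adjusted p = 0.0219), beside 0.342% of all genes. Such fits rest on a single pool in a group and assume that it varies like the pools of the other time points.

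Between 1d and 3d, the time points at which the median difference between pools was smaller, the fold changes of all 8 genes were above 0, with a median of 0.19 on the log2 scale, while 49.2% of all tested genes were below 0. None passed the threshold when all 8 libraries shared an estimate of the spread, where 0.289% of all tested genes were called. Pmp2 stood at 0.53 (95% interval -0.41 to 1.47), Prx at 0.24 (-0.40 to 0.88), Pmp22 at 0.23 (-0.28 to 0.73), Mbp at 0.19 (-0.40 to 0.79) and Mag at 0.18 (-0.097 to 0.47). Drp2 stood at 0.080 (-0.47 to 0.63), Cnp at 0.067 (-0.22 to 0.35) and Egr2 at 0.064 (-0.85 to 0.98). In 6 genes, Mbp, Pmp22, Pmp2, Mag, Prx and Drp2, both pools of 3d lay above both pools of 1d, a separation in this direction found for 20% of all tested genes.

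When only the 4 libraries of 1d and 3d entered the fit, the estimate of the spread no longer held the pools of 0d and 30d, and 4 of the 8 genes were called higher at 3d, Pmp22 at 0.22 (SE 0.032, adjusted p = 0.000170), Prx at 0.24 (SE 0.037, adjusted p = 0.000403), Mbp at 0.19 (SE 0.034, adjusted p = 0.00184) and Pmp2 at 0.53 (SE 0.090, adjusted p = 0.00862). In that fit 0.822% of all genes tested were called higher. The sizes were nearly the same in both fits and the standard errors differed, 0.19 for Pmp22 with all 8 libraries and 0.032 with 4. The same 4 genes were called higher, beside 0.89% of genes, without both pool 1 of 0d and pool 1 of 30d.

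Between 3d and 30d none of the 8 genes was called, where 0.935% of all tested genes were. Fold changes were below 0 for 7 of 8 genes, with a median of -0.28, and 49.9% of all tested genes were below 0. Pmp22 stood at -0.51 (95% interval -1.02 to -0.0080) with an unadjusted p of 0.0477, where 13% of all tested genes had one under 0.05, and an edgeR adjusted p of 0.378, Pmp2 at -0.60 (-1.53 to 0.32), and Mbp at -0.31 (-0.91 to 0.28). Prx stood at -0.30 (-0.95 to 0.34), Mag at -0.26 (-0.53 to 0.022), Cnp at -0.23 (-0.51 to 0.051) and Drp2 at -0.12 (-0.67 to 0.43). Pools did not overlap for 6 genes that were lower at 30d, all but Drp2 and Egr2, against 23.5% of all tested genes, and for Egr2, which was higher at 0.40 (-0.49 to 1.30), against 22.9%. Without pool 2 of 30d Cnp was called lower (-0.42, adjusted p = 0.00286), beside 0.612% of all genes. Without both pool 1 of 0d and pool 1 of 30d, Pmp22 was called lower (-0.34, adjusted p = 1.44e-06), beside 5.42% of all genes, and Egr2 higher (0.49, adjusted p = 0.00315), beside 3.69%, and Drp2 stood at 0.11.

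**Figure D3:**
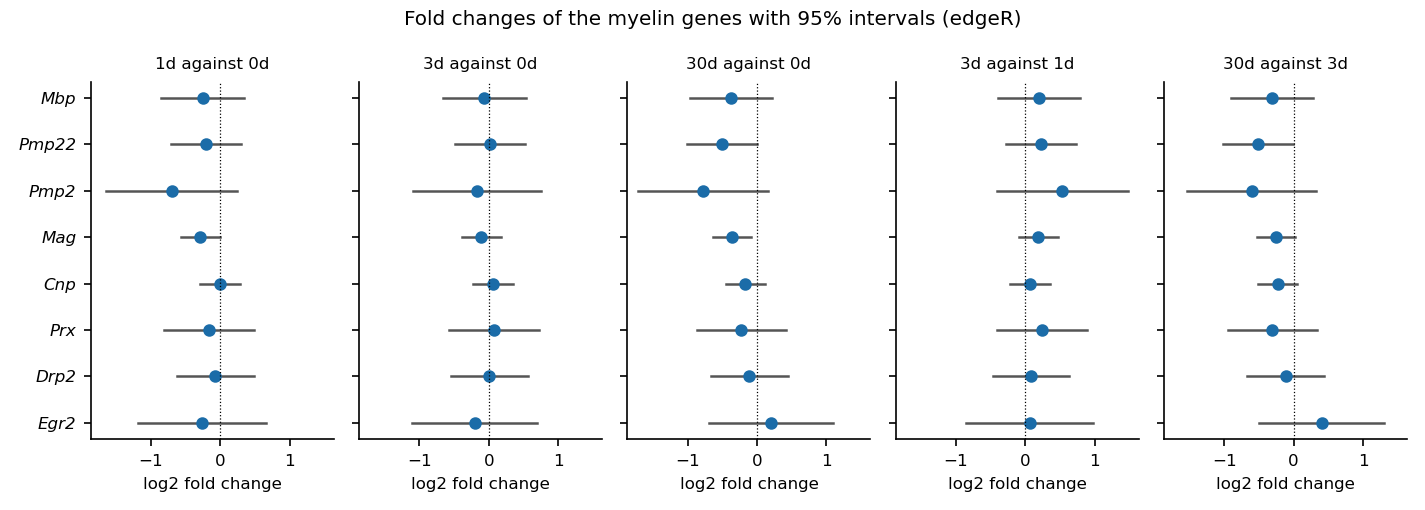
Fold change of each myelin gene in the 5 comparisons (log2, horizontal axis), with points for the edgeR estimate and lines for its 95% interval, and a dotted line at 0. Of the 40 intervals, those of Mag at 1d and 30d against 0d and of Pmp22 at 30d against 3d lie just to the left of 0, and no gene passed the threshold after adjustment.

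The test of any difference among the 4 time points, which picks no time point, also called none of the 8 genes, where it called 1.02% of all tested genes. The smallest p was that of Mag, 0.0575, with an edgeR adjusted p of 0.478. Without both pool 1 of 0d and pool 1 of 30d it called 6 of the 8, all but Mag and Cnp, beside 8.69% of all genes. With single libraries left out it called Egr2 without pool 1 of 0d (1.56% of all genes), Mag and Egr2 without pool 2 of 0d (1.56%) and Cnp without pool 2 of 30d (1.84%).

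Other genes of myelin and of Schwann cells were read from lists chosen by function, 55 tested genes in all beside the 8. At 1d against 0d none of the 55 was called, beside 0.346% of all tested genes, and 46 were below 0, beside 51.2% of all, with a median of -0.10. At 3d against 0d 1 was called, Ngfr, which was higher (0.219% of all), and 30 were below 0 (50.8% of all), with a median of -0.010. For the 30d group against 0d none was called (0.0231% of all) and 41 were below 0 (50.1% of all), with a median of -0.13. Between 1d and 3d none was called (0.289% of all) and 6 were below 0 (49.2% of all), with a median of 0.12. Between 3d and 30d 4 were called, all lower (Cd9, Arhgef10, Ngfr and Gap43, beside 0.935% of all called), and 42 were below 0 (49.9% of all), with a median of -0.12. These values come from the same libraries as those of the 8 genes.

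In the list of 12 compact myelin and membrane genes Cd9, a tetraspanin, was the only gene called, lower at 30d than at 3d at -0.20 (adjusted p = 0.0391), and none of the 12 was called against 0d, where the smallest adjusted p at 1d was 0.623 for Gldn, which encodes gliomedin of the node. At 30d against 0d Cd9 stood at -0.21 (adjusted p = 0.0734).

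None of the 5 genes of myelin lipid synthesis was called in any comparison, with the smallest p at 30d against 0d for Cers2, a ceramide synthase (-0.24, adjusted p = 0.121), and Gal3st1, the sulfatide synthase (-0.40, adjusted p = 0.130). None of 11 regulators and axonal signalling genes was called either. Among them Sox10, the partner of EGR2, ranged from 116 to 142 CPM, and the smallest p at 1d against 0d was that of Zeb2, a repressor needed for myelination (-0.22, adjusted p = 0.269). Pou3f1, which acts upstream of Egr2, stood at -0.34 at 3d against 0d (adjusted p = 0.505) and at 0.38 at 30d against 3d (adjusted p = 0.146). Of 6 genes that link the Schwann cell to its basal lamina none was called, with Dag1, the dystroglycan that DRP2 and periaxin bind, at -0.23 at 30d against 0d (adjusted p = 0.192).

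Of 7 genes whose mutations cause demyelinating neuropathy, Arhgef10, a nucleotide exchange factor for small GTPases, was called lower at 30d than at 3d (-0.38, adjusted p = 0.00997), at 96.9 and 97.7 CPM in the pools of 3d and 75.1 and 74.8 in those of 30d. Of 14 tested genes of immature and repair Schwann cells, Ngfr, the p75 neurotrophin receptor that sensory neurons also make, rose at 3d against 0d by 0.30 (adjusted p = 0.0152) and fell between 3d and 30d by 0.34 (adjusted p = 0.00292). Ngfr stood at 819 and 900 CPM in the pools of 0d, 918 and 965 in those of 1d, 1065 and 1044 in those of 3d and 850 and 817 in those of 30d. Gap43, a growth-cone protein of neurons and repair cells, fell between 3d and 30d by 0.26 (adjusted p = 0.0213). Jun, the main driver of the repair state, was not called in any comparison. It was highest in the pools of 3d, at 137 and 138 CPM, and ranged from 119 to 128 CPM in the other libraries. Sox2 ranged from 19.7 to 25.9 CPM. The calls at 30d against 3d were lost without pool 1 or without pool 2 of 3d, where adjusted p was between 0.0545 and 0.481 for Ngfr, Gap43, Cd9 and Arhgef10, and that of Ngfr at 3d was lost without either pool of 3d or without pool 1 of 0d (0.0845 to 0.384). Cd9 was also not called without pool 1 of 30d (0.0932) and Gap43 without pool 2 of 30d (0.0830). With the gene length trend removed, Ngfr at 3d (0.0696), Cd9 (0.269) and Gap43 (0.0813) were not called, nor without robust estimation were Ngfr at 3d (0.0504) and Cd9 (0.0769), and the direction was kept each time.

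The tissue was checked against marker lists, since the cell type given in the labels is DRG neurons while whole ganglia were dissected. The 15 sensory neuron markers summed to between 25823 and 27536 CPM in the 8 libraries, and 8 satellite glia markers to between 3118 and 3592 CPM, of which Apoe alone gave 1819 to 2286 CPM. Fabp7, a fatty acid binding protein of these glia, reached 148 and 176 CPM in the pools of 0d, against 83.2 to 90.9 CPM in those of 1d, 61.7 to 65.5 CPM in those of 3d, and 62.9 and 136 CPM in pools 1 and 2 of 30d. Its pools of 0d thus lay above all others, with log2 fold changes against 0d of -0.89 at 1d, -1.35 at 3d (adjusted p = 0.731) and -0.70 at 30d, none of which was called. The list did not share falls of this size. Against 0d, 6 of its 8 markers were below 0 at 1d (median -0.14) and 5 at 3d (median -0.044). Glul stood higher at 3d, at 489 and 481 CPM in its pools against 393 and 380 in those of 0d. At 30d against 0d, 6 of the 8 satellite glia markers were below 0, with a median of -0.27, and Apoe, a lipid carrier, was called lower (-0.28, adjusted p = 0.0322), as it was at 30d against 3d (-0.23, adjusted p = 0.0128). Each Apoe call was lost without pool 1 or without pool 2 of 3d (adjusted p = 0.123 to 0.244) and with the gene length trend removed (0.101 and 0.145). At 30d against 0d it was also lost without robust estimation of the spread and with only the compared groups in the fit (0.102 each), and the part of satellite glia in the values of the myelin genes was not tested. Markers of oligodendrocytes, which make myelin in the central nervous system and also use Mbp, Mag and Cnp, summed to between 7.11 and 9.30 CPM over 8 genes. Opalin was at 0 in all libraries, Mog was at most 0.227 CPM, Olig2 at most 0.0153 and Klk6 at most 0.0684, and most of the sum was Myrf at 5.73 to 7.93 CPM. Prx, a gene of peripheral myelin, was present at 435 to 714 CPM.

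Some markers of other tissue moved with the pools that stood apart in the myelin genes. The summed level of 5 red blood cell genes was lowest in pool 1 of 0d, at 141 CPM, and highest in pool 1 of 30d, at 515 CPM, and lay between 181 and 282 CPM in the others. Of these, Hba-a1 and Hba-a2 had the same count in each library, so that sum may hold the same reads more than once. Hbb-bs alone was at 40.2 CPM in pool 1 of 0d, 161 in pool 1 of 30d and 55.8 to 81.8 in the others. The 7 fibroblast and perineurium markers summed to 1723 CPM in pool 1 of 0d and to between 1205 and 1332 in the other 7 libraries, with Col1a1 at 404 CPM in that pool and 220 to 282 elsewhere. Of these 7, Lum was called lower at 1d against 0d (-0.49, adjusted p = 0.0326), but not without pool 1 of 0d (0.232), nor without any single pool of 1d or 3d (0.0871 to 0.370), nor without robust estimation (0.0570), with replicate numbers as a block (0.0584) or with the compared groups alone (0.0990). The 7 skeletal muscle genes summed to 137 CPM in pool 1 of 0d and 112 in pool 1 of 30d, and to between 20.1 and 72.9 in the others. All 7 were below 0 at 1d and at 3d against 0d. At 30d against 3d 4 of the 7 were below 0, with a median of -0.0093, so the list was split there. Myh1, a myosin heavy chain, was called lower at 1d (-1.47, adjusted p = 0.0324) and 3d (-1.61, adjusted p = 0.0237) against 0d and higher at 30d against 3d (1.35, adjusted p = 0.0292). Without pool 1 of 0d it was at -1.01 and -1.15 against 0d and not called, nor was it called in any of the 3 comparisons without a pool of 3d. Calls of Myh1 at 1d were lost without either pool of 1d (0.316 and 0.339) and with the compared groups alone (0.0627) as well, and without robust estimation Myh1 was called in none of the 3 comparisons (adjusted p = 0.0582 to 0.0691). The part of these tissues in the differences between pools of the myelin genes was not tested.

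General markers of the Schwann lineage (6 genes) summed to 1262 CPM in pool 1 of 0d and 1070 in pool 1 of 30d, a narrower range than that of the 8 myelin genes, whose sum was 6358 and 3652 CPM in the same pools. Markers of non-myelinating Schwann cells (4 genes) summed to between 1883 and 2154 CPM, lowest in pool 1 of 0d and highest in pool 1 of 3d. Much of this sum was Ngfr at 817 to 1065 CPM, also highest in pool 1 of 3d, and L1cam at 590 to 671 CPM. Gfap was at most 1.49 CPM. The 9 macrophage markers summed to between 99.8 and 119 CPM and 6 endothelial markers to between 104 and 120 CPM.

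**Figure D4:**
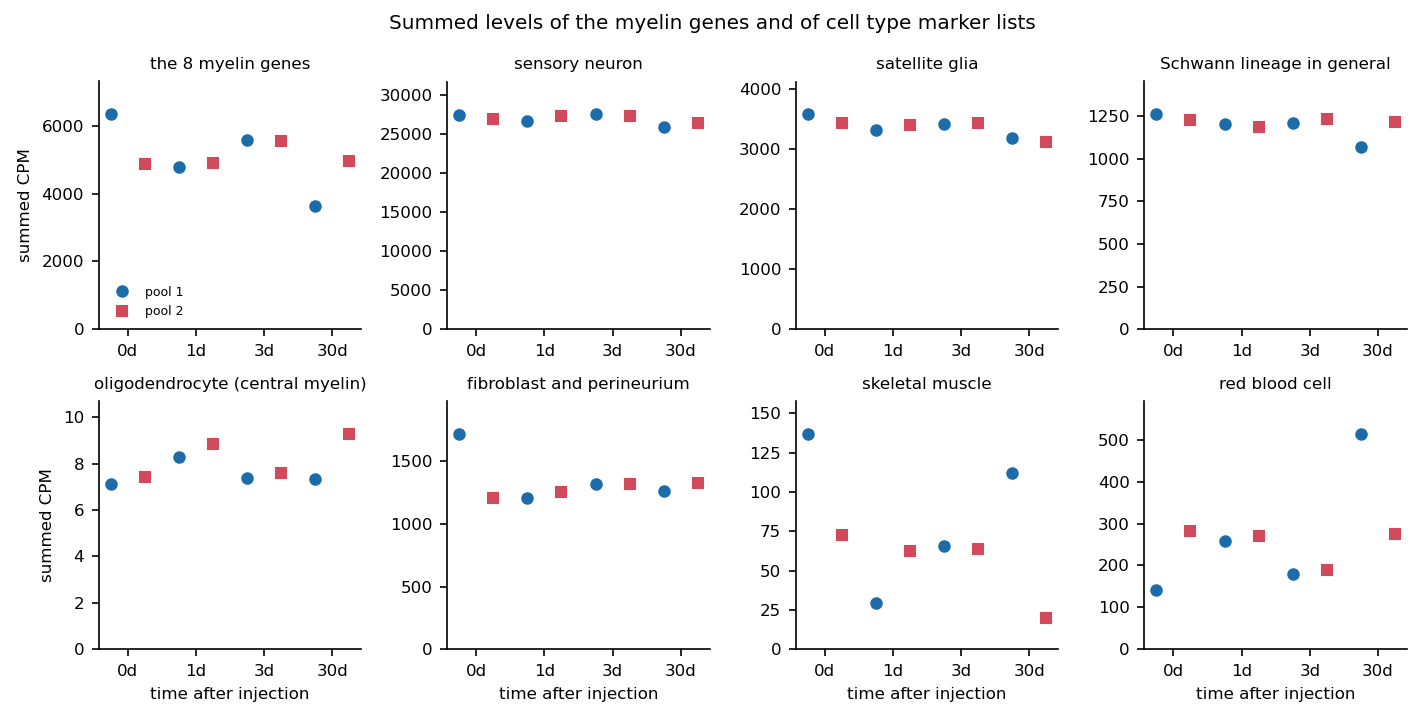
Summed CPM (vertical axes, from 0) of the 8 myelin genes and of 7 marker lists in each pool at 0d, 1d, 3d and 30d (horizontal axis), pool 1 as circles and pool 2 as squares. The sum of the myelin genes is 6358 CPM in pool 1 of 0d and 3652 in pool 1 of 30d, where the red blood cell sum is 141 and 515 CPM.

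The depth was 44123208 to 73580338 counts per library, and even the least abundant of the 8 genes, Egr2, had between 691 and 1675 counts in a library.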

How the data were processed

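RNA of dorsal root ganglia at 4 time points was sequenced in 8 libraries, 2 per time point. The authors deposited gene counts without normalization. Per the submitters' notes, reads were trimmed with cutadapt 2.10, aligned to mm10 with STAR 2.7.5a and counted on UCSC genes with featureCounts 2.0.1. Counting ignored strand, counted a read pair for each gene it overlapped and left out reads with several positions.

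Counts were filtered with filterByExpr in edgeR 4.0.16 (R 4.3.3), scaled by TMM and fitted with time point as the only term over all 8 libraries. The 17328 genes that passed were tested with the robust quasi-likelihood F-test, with Benjamini-Hochberg adjustment of the p-values. The 7093 other genes made up no more than 0.0120% of a library. Standard errors were derived from the log2 fold change and F, and 95% intervals from these and the t quantile. Log2 CPM used a prior count of 2. Alternatives were other size factors, no filter, DESeq2 1.42.0, a fit without robust estimation, the replicate number as a block, removal of a gene length trend, fits of the compared groups alone and each library left out. The script was tested on simulated data. P-values measure the spread between pools.

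The 8 genes and the gene lists were chosen with earlier results of these data known. All 8 genes were named in each pairwise comparison. From the lists of related genes, those past the threshold were named and, where none passed, 1 or more of the 2 with the smallest p in some comparisons. The 10 genes most like and the 5 most unlike the mean of the 8 genes were named, as were markers and some genes for their role, chosen after their values were seen. The values of 1 list gene are not reported here.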

Additional observations from a re-analysis of the deposited data

How the results depend on the processing

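Over 16 alternatives, 601 of 640 fold changes of the 8 genes kept their side of the threshold and their direction (or moved by less than 1 standard error), 20 passed it newly in the same direction and 19 changed sign with a larger move, of which 2 also passed the threshold (Prx and Drp2 at 30d against 0d without both pool 1 of 0d and pool 1 of 30d). Normalization, filtering, DESeq2, robust estimation and the gene length trend called none of the 8 genes. The replicate block (replicate numbers as pairs) also called 0 of the 8 genes in each comparison. Deviations of pools with the same number correlated between -0.0144 and 0.0438, so the numbers were not taken to pair samples. With the block, 69 genes in place of 4 were called at 30d against 0d and 77 in place of 50 at 3d against 1d.

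Leaving out 1 library gave 0 to 2 of the 8 genes called at 1d against 0d, 0 to 1 at 3d and at 30d against 0d, 0 at 3d against 1d, 0 to 1 at 30d against 3d and 0 to 2 for any difference. The number called was 4 at 3d against 1d with the compared groups alone. Without both pool 1 of 0d and pool 1 of 30d, chosen after seeing the data, it was 2 at 3d and 3 at 30d against 0d, 4 at 3d against 1d, 2 at 30d against 3d and 6 for any difference.

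In all, 33 of the 640 fold changes differed in sign, some of them by less than 1 standard error. Among these smaller moves, Prx (0.055) and Drp2 (0.090) at 1d and Mbp (0.15) at 3d turned positive without pool 1 of 0d. Pmp22 (-0.17), Prx (-0.11) and Drp2 (-0.14) turned negative at 3d without pool 2 of 0d. The 19 sign changes with a larger move, listed next, came from leaving out pools of 0d or 30d. Without pool 1 of 0d, with or without pool 1 of 30d, Pmp22 (0.0011 and 0.00093) and Egr2 (0.34) changed sign at 1d, and Pmp2 (0.26), Mag (0.13) and Egr2 (0.40) at 3d. With both left out, Mbp (0.057), Cnp (0.039), Prx (0.24) and Drp2 (0.28) changed sign at 30d against 0d. Without pool 1 of 30d alone, Prx (0.020) and Drp2 (0.12) did, and without pool 2 of 0d, Egr2 (-0.23). Drp2 changed sign at 30d against 3d (0.11) without pool 1 of 30d. Leaving out 1 library moved these log2 fold changes over ranges of -0.40 to 0.0011 for Pmp22 and -0.70 to 0.34 for Egr2 at 1d, -0.50 to 0.26 for Pmp2, -0.31 to 0.13 for Mag and -0.63 to 0.40 for Egr2 at 3d, -0.53 to 0.020 for Prx, -0.39 to 0.12 for Drp2 and -0.23 to 0.80 for Egr2 at 30d, and -0.40 to 0.11 for Drp2 at 30d against 3d.

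The whole table gave 60 genes called at 1d (26 to 151 over the alternatives), 38 at 3d (1 to 318) and 4 at 30d (0 to 1133) against 0d, 50 at 3d against 1d (5 to 284), 162 at 30d against 3d (12 to 1617), and 177 for any difference (51 to 1543). Each of the 8 genes had at least 691 counts in a library.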

Other observations

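Outside the myelin genes, 2 of 15 sensory neuron markers, Calca and Scn10a, were called higher at 3d against 0d, where 0.219% of all tested genes were called. The list as a whole was split, with 6 of the 15 below 0 and a median of 0.015. Calca, the precursor of the pain peptide CGRP, rose by 0.32 on the log2 scale (SE 0.052, edgeR adjusted p = 0.0237), from 798 and 892 CPM in the pools of 0d to 1039 and 1076 in those of 3d. The Calca call at 3d was lost without pool 1 of 0d (adjusted p = 0.0845), without either pool of 3d (0.172 and 0.453) and without robust estimation (0.0547). Calca fell again between 3d and 30d by 0.43 (adjusted p = 0.00201), to 791 and 784 CPM, and this call held in each of the 16 alternatives. Tac1, the precursor of substance P, fell between 3d and 30d by 0.28 (adjusted p = 0.0110), but was not called without pool 1 or pool 2 of 3d (0.169 and 0.240) or with the gene length trend removed (0.0848). Scn10a, the sodium channel Nav1.8 of pain neurons, rose by 0.22 (adjusted p = 0.0499), a value at the threshold that 8 of the alternatives did not reach.

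The 9 macrophage markers were split at 3d against 0d, with 5 below 0 and a median of -0.0081. Ptprc, for one, stood at 5.07 and 4.37 CPM in the pools of 0d and at 6.10 and 5.77 in those of 3d. Cx3cr1, the fractalkine receptor of macrophages, fell at 3d against 0d by 1.02 (SE 0.14, adjusted p = 0.00794), from 10.8 and 10.9 CPM to 5.64 and 5.06, and it was the only one of 9 macrophage markers called in any comparison. The call was lost without pool 1 or pool 2 of 3d (adjusted p = 0.143 and 0.266), with the direction kept.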
